A study of Mus musculus with 9 samples.

Results

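The transcriptome of untreated wild-type mTEChi was described from 3 libraries of the 9 in the series. mTEChi are the medullary thymic epithelial cells with high levels of MHC class II, the surface molecules that present peptides to CD4+ T cells. The members were the libraries labelled mTEChi 2, mTEChi Exp2 and mTEChi 0h, each from WT mice with no drug given to the cells. mTEChi 0h is the reference time point of an actinomycin D series. The cells were sorted by FACS from pooled thymi of B6 mice, which the methods give as 4-wk-old, by a gate on cells without CD45 and Ly51 and with high I-A/E that holds no epithelial surface marker. Beside them stood 1 library of mTEChi from Aire-/- mice (Aire-KO mTEChi 2) and 1 library of WT mTEClo (mTEClo Exp2), the MHC class II low cells taken from the same mice as mTEChi Exp2. The remaining 4 libraries were WT mTEChi kept in actinomycin D, an inhibitor of transcription, for 1.5, 3, 6 or 12 h at 1 µM. Each untreated library came from a pool of mice, and nothing in the labels says whether the 3 pools were prepared on separate days, so their spread may be partly technical.

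Medullary thymic epithelial cells present the body's own proteins to developing T cells, so that T cells which react to them are removed or become regulatory T cells. To do so they transcribe genes that are otherwise confined to single organs, and many of these depend on Aire, a nuclear protein made by mature mTEChi. The mature cells are also known for high antigen presentation and costimulation, and for keratins and adhesion proteins of epithelium. Some mature mTECs go on to resemble skin corneocytes, tuft cells of the gut or microfold cells, so a sorted mTEChi pool is a mixture.

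Levels are given in CPM, counts scaled to the same total in every library, over the 25401 RefSeq entries that all the tables hold, all of them coding, and genes were compared with each other only as CPM per kb of exon (RPKM). The 3 libraries held 95437982 (mTEChi 2), 179241980 (mTEChi Exp2) and 91123703 (mTEChi 0h) reads on these entries, so 3 reads, the limit that a count of 0 allows, were worth between 0.0167 and 0.0329 CPM, for counting error only. One entry was kept per symbol, which left 20058 genes. At these depths counting error was small: the median coefficient of variation (CV) that counting gives was 0.022 over the 15107 genes of at least 1 CPM in every library, against an observed median CV of 0.291.

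The most abundant coding RNAs of untreated mTEChi were those of antigen presentation. By the mean of the 3 libraries, 8 of the 25 highest genes per kb encode MHC or similar chains, B2m or the class II invariant chain, and Cd74, H2-Aa, H2-Ab1 and H2-Eb1 were in the first 10 places of every library. Cd74, the invariant chain that escorts class II molecules to endosomes, had 6847 RPKM in mTEChi 2, 7703 in mTEChi Exp2 and 5152 in mTEChi 0h, with a mean of 6567 ± 1299 (SD, n = 3). The class I light chain B2m followed at 6313 ± 483 RPKM (SD, n = 3), with 6862, 6127 and 5951 in the same order of libraries. H2-Aa, the class II alpha chain, held 5905, 5644 and 5597 RPKM and H2-Ab1, its beta partner, 4800, 4964 and 3718. The 3 values of H2-Aa lay within a CV of 0.029, the closest of the 25. H2-K1 (2677 ± 274), H2-Eb1 (2225 ± 151) and H2-D1 (1587 ± 173, all RPKM, SD, n = 3) completed the set, and reads of the class I heavy chains are uncertain, since similar class I genes (LOC547349 is also among the 25) can share them.

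Ubd, a ubiquitin-like protein that marks proteins for the proteasome, was the fifth gene at 2729 ± 145 RPKM (SD, n = 3), with 2893, 2621 and 2674 in mTEChi 2, mTEChi Exp2 and mTEChi 0h. The ubiquitin gene Ubb (1782 ± 306 RPKM, SD, n = 3) was also among the 25, and reads of its repeated coding units are uncertain. Next to them stood Eef1a1 (2155 ± 348), an elongation factor, Actb (1463 ± 281), Srgn (1734 ± 404), the core protein of secretory granule proteoglycans, and Tmsb4x (1946 ± 1292 RPKM), which binds free actin. The epithelial keratins Krt17 (1624 ± 156), Krt8 (1108 ± 150) and Krt18 (1072 ± 312 RPKM) were in the set too. The chaperones Hsp90ab1, Hspa1b, Hspa1a and Hspa8 ranged from 1131 to 1433 RPKM on average, and Hspa1a and Hspa1b are near-identical copies. Reg3g, an antibacterial lectin of the gut, had the widest relative gap between mTEChi 2 and mTEChi Exp2 of the set at 2639 and 673 RPKM, with 1264 in mTEChi 0h. Fabp5, a fatty acid carrier, and Fcgbp, a mucus protein, closed the list at 1097 ± 285 and 932 ± 252 RPKM (SD, n = 3).

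**Figure D1:**
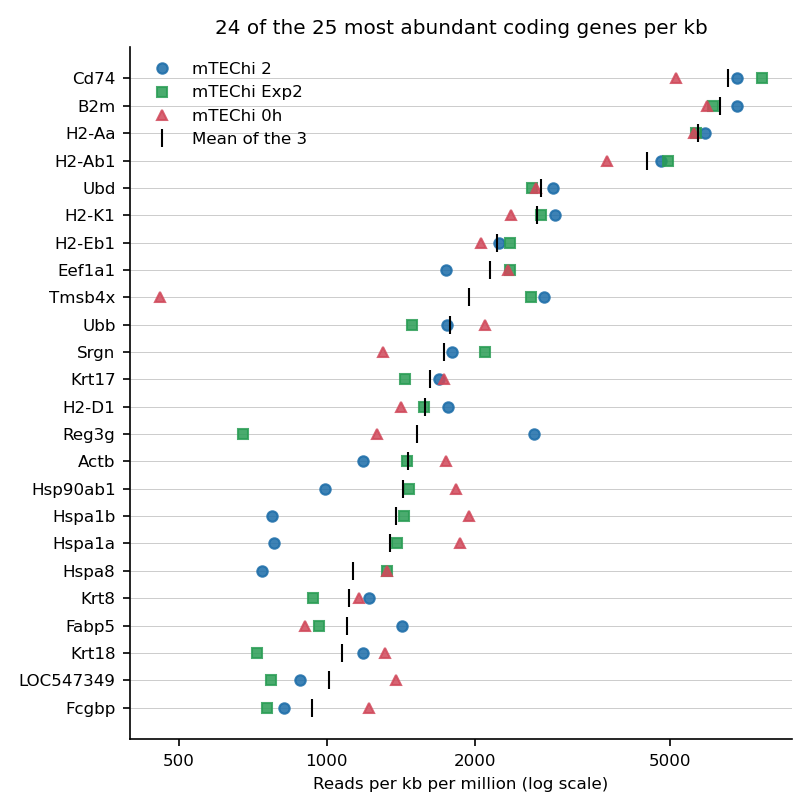
RPKM (log axis) of 24 of the 25 coding genes with the highest mean, in mTEChi 2 (circles), mTEChi Exp2 (squares) and mTEChi 0h (triangles), with the mean of the 3 as a bar. H2-Aa lies between 5597 and 5905 in the 3 libraries, while Tmsb4x is at 458 in mTEChi 0h and Reg3g runs from 673 in mTEChi Exp2 to 2639 in mTEChi 2.

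Class II promoters are known for the Y box, an inverted CCAAT sequence bound by NF-Y that sits next to the sites bound by RFX. RefSeq promoter sequences (GRCm38.p6, 250 bases before to 50 after the start, the first listed per gene) were matched for 16063 of the 20058 genes. The letters GATTGG, searched on both strands of the 250 bases before the start, were found in 8 of 12 promoters of the class II presentation list (66.7%) and in 8 of 16 of the 25 highest genes, against 17.6% of all matched promoters. The shorter ATTGG, the inverted CCAAT itself, was found in 9 of 12 (75.0%) and 9 of 16, against 36.5% of all. Promoters of 3 class II genes that hold the letters between 49 and 62 bases before the start are shown for 30 bases around them, with the match in capitals.
H2-Aa (chr17:34287855-34287884, minus strand): agagaattttctGATTGGttctggcgagtt
H2-Eb1 (chr17:34305795-34305824, plus strand): tcctttgatgctGATTGGctcccagcactg
H2-DMb1 (chr17:34153117-34153146, plus strand): gattcactcagtGATTGGtctgacctgcct
The match starts 49, 60 and 62 bases before the start, in that order, and is a match of letters, not a measured site. Other matches lay elsewhere, at 199 bases in H2-DMa and at 6 in H2-K1. The letters were also found in 15 of 20 promoters of the cell cycle list (75.0%) and in 162 of 1575 (10.3%) of genes under 0.1 CPM. TATAAA between 45 and 16 bases before the start, searched on the sense strand, was found in 7 of 19 promoters of the pancreas list (36.8%) and 4 of 9 of the corneocyte-like list (44.4%), against 2.98% of all matched promoters.

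A broad set of genes was read beneath these few. In mTEChi 2, mTEChi Exp2 and mTEChi 0h, 15647, 15942 and 15829 genes reached 1 CPM, 10231, 10311 and 10006 reached 10 CPM, and 45, 43 and 48 reached 1000 CPM. Every library thus held close to the same number at each level (15806 ± 149 genes of 1 CPM, SD, n = 3). The 100 highest genes of each library took 20.7% ± 1.36 (SD, n = 3) of the reads on the 20058 genes, and 1153, 1135 and 1025 genes were needed to hold 50% of them. A read was found for 18579 genes in all 3 libraries, and 140 genes, 0.698%, had none in any.

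**Figure D2:**
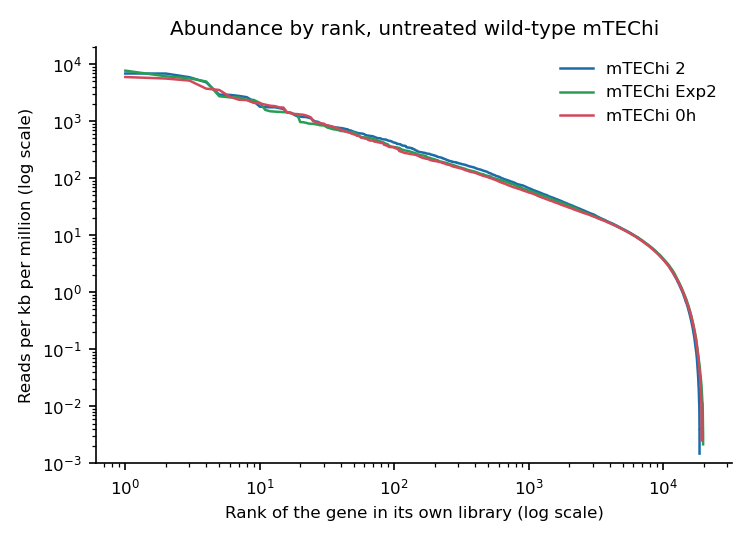
RPKM of each gene against its rank in its own library (both axes log), for genes with at least 1 read. The 3 libraries follow similar curves, with 1025 to 1153 genes holding 50% of the reads on genes.

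Depth was matched to ask whether the comparison libraries were as broad. At an expected 60000000 reads, 17581 (mTEChi 2), 17943 (mTEChi Exp2) and 17964 (mTEChi 0h) genes would hold at least 10 reads, a range in which mTEClo (18747) and Aire-KO mTEChi (15605) did not fall. At 1 CPM the Aire-KO library held 13615 genes and mTEClo 15305, both fewer than any untreated WT mTEChi library. With 1 library of each there was no replicate check on these counts.

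Gene families differed in how far they were covered, against 75.3% of all genes at 1 CPM in all 3 libraries. Keratins were the widest of those named here, with 44 of 49 genes at that level (Aire-KO 31, mTEClo 39). Solute carriers reached it for 281 of 335 (Aire-KO 237, mTEClo 278) and serpins for 46 of 60 (30 and 44). Collagens reached it for 36 of 42 (28 and 40) and zinc finger Zfp genes for 287 of 340 (299 and 330). The Aire-KO and mTEClo counts need 1 library and the WT counts all 3, which lowers the WT counts. By single library, the Zfp genes numbered 290, 310 and 308 in mTEChi 2, mTEChi Exp2 and mTEChi 0h. Cytochrome P450 genes, enzymes of drug and steroid oxidation found mostly in liver, reached 1 CPM in all 3 for 56 of 97, against 26 in Aire-KO mTEChi and 43 in mTEClo, and Cyp2a5 led them with 799, 357 and 775 CPM in mTEChi 2, mTEChi Exp2 and mTEChi 0h. Beta-defensins reached it for 9 of 42 genes, led by Defb6 at 166, 42.6 and 37.6 CPM. Hox genes reached it for 14 of 39. Olfactory receptors, the receptors of smell, reached it for 3 of 1092 genes (0.275%), with 5 in Aire-KO mTEChi and 16 in mTEClo. By single library they numbered 7, 11 and 20 in mTEChi 2, mTEChi Exp2 and mTEChi 0h, each above Aire-KO mTEChi. Vomeronasal receptors reached it for 0 of 346 (Aire-KO 1, mTEClo 3), and by single library for 0, 2 and 4 in the same order. Even so, 284 olfactory receptor genes had at least 1 read in all 3 libraries, and the highest, Olfr461, had 5.75, 2.84 and 8.91 CPM. Similar sequences within these receptor families can share reads. By chromosome, the share of genes at 1 CPM in all 3 libraries was highest on chromosome 15 (85.5%) and lowest, among chromosomes with over 100 genes placed once in the mm9 annotation, on X (61.7%), followed by chromosome 7 (64.5%).

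The identity genes of the sorted cells were read in all 3 libraries. All 20 genes of the mTEC maturation list reached 1 CPM in each library, 17 reached 10 CPM and 8 reached 100 CPM. So did 13 of 13 genes of the cortical thymic epithelial list and 13 of 14 of the mTEClo list at 1 CPM. Reaching 1 CPM thus does not mark mTEChi by itself. Tbata, of the cortical list, had 448 ± 79.6 CPM (SD, n = 3). Aire (chromosome 10, 77492767 to 77506355, minus strand, mm9) had 283 CPM in mTEChi 2, 484 in mTEChi Exp2 and 808 in mTEChi 0h, with a mean of 525 ± 265 (SD, n = 3). Fezf2, the other known driver of organ genes in mTECs, had 399, 491 and 549 CPM (480 ± 75.6), and the NF-kB subunit genes Nfkb2 and Relb had 434 ± 136 and 258 ± 68.4 CPM (SD, n = 3). The library labelled Aire-KO mTEChi 2 held 748 CPM of Aire, inside the range of the WT libraries. The table gives 1 value for the whole gene, so the level does not check that label, and directions drawn against this library rest on it. The epithelial list was read at 1 CPM in 22 of 22 genes, with Epcam at 498 ± 45.4 CPM and Cdh1 at 494 ± 16.3 (SD, n = 3). Clp1, a kinase of the RNA 3′ end cleavage complex, had 29.6, 31.2 and 57.2 CPM.

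Markers of other cells were also read in each library. Thymocyte markers summed to 66.2, 64.9 and 52.2 CPM over 16 genes in mTEChi 2, mTEChi Exp2 and mTEChi 0h, with Cd3g at 4.09 ± 0.443 CPM (SD, n = 3). B cell markers summed to 74.4 to 84.7 CPM over 8 genes, endothelial markers to 90.7 to 118 over 11, fibroblast markers to 206 to 309 over 11 and erythroid markers to 145 to 285 over 7. The erythroid sum may count some reads more than once. Hba-a1 and Hba-a2 in it had the same values, 89.2, 34.4 and 40.8 CPM in mTEChi 2, mTEChi Exp2 and mTEChi 0h. Dendritic cell and macrophage markers summed to 813, 646 and 303 CPM over 17 genes in mTEChi 2, mTEChi Exp2 and mTEChi 0h. Lyz2 alone, a lysozyme of myeloid cells, made 627, 506 and 173 CPM of these, while C1qb had 24.4 ± 5.78 CPM (SD, n = 3) and Ptprc, the gene of CD45, 7.35, 7.32 and 14.3. Whether the lower-level RNAs came from such cells or from mTECs was not tested. Sex-linked genes of the Y chromosome (Ddx3y 24.1, 35.7 and 43.4 CPM) were read in every library. The X-linked non-coding RNA Xist, not counted for mTEChi 0h, had 182 and 167 CPM in mTEChi 2 and mTEChi Exp2 in its higher entry.

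Genes of single organs were read in every library at low to moderate levels. All 23 genes of the liver list reached 1 CPM in the 3 libraries, as did 18 of 21 of the pancreas list, 12 of 18 of milk and saliva, 17 of 22 of brain and eye, 19 of 19 of muscle and heart, 15 of 17 of thyroid, stomach and kidney, and 6 of 17 of testis, against 15107 of all 20058 genes (75.3%). The list medians were modest. The 23 liver genes had a median of 14.2, 15.3 and 15.0 CPM in mTEChi 2, mTEChi Exp2 and mTEChi 0h, against 10.6, 10.7 and 9.94 over all genes. The 17 testis genes had medians of 0.838, 0.748 and 0.768 CPM.

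How even the organ genes were over the 3 pools varied. Pyy, a gut and islet hormone, had 30.04, 30.8 and 30.2 CPM, a mean of 30.3 ± 0.382 (SD, n = 3). Pgc, a stomach protease precursor, had 63.0, 76.0 and 87.7 CPM. Ctrb1, a pancreatic protease precursor, had 51.2, 38.8 and 46.6 CPM, and the islet hormone gene Sst 20.2, 27.7 and 22.1. Ins2, an insulin gene, had 12.0, 9.16 and 9.22 CPM. Csn2, the milk protein beta-casein, was the highest organ gene of these lists at 539, 693 and 1044 CPM and stood at place 44 of all genes per kb. Bpifa1, a secreted airway protein, had 507, 133 and 288 CPM, and Spink1, a pancreatic trypsin inhibitor, had 213 CPM in mTEChi 2 against 47.8 in mTEChi Exp2 and 46.0 in mTEChi 0h.

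**Figure D3:**
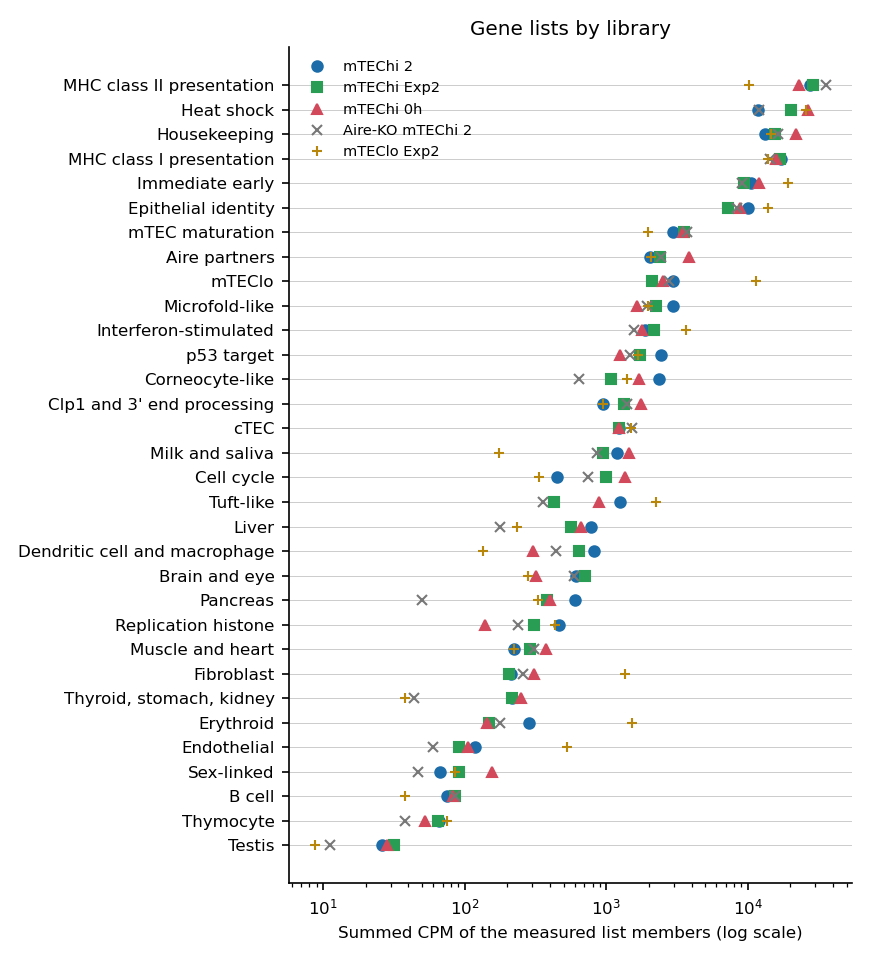
Summed CPM (log axis) of the measured members of each gene list in the 3 untreated WT mTEChi libraries (filled symbols), Aire-KO mTEChi (x) and mTEClo (+). The filled symbols of the MHC class I list lie between 15801 and 17050 CPM, and the pancreas list runs from 383 to 604 CPM in the WT libraries against 49.8 in Aire-KO mTEChi.

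Stress-response genes were also among the highest. All 13 heat shock genes were over 10 CPM in every library, and their sum was 11827 CPM in mTEChi 2, 20072 in mTEChi Exp2 and 26451 in mTEChi 0h. The immediate early list, genes induced within minutes of a stimulus and often by tissue digestion, summed to 10490, 9367 and 11997 CPM. Fos had 1327, 1074 and 1729 CPM and Jun 1237, 1598 and 1385. The part that cell isolation had in these levels was not tested.

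The 3 libraries ranked genes much alike. Spearman's rho over the 20058 genes was 0.979 between mTEChi 2 and mTEChi Exp2, 0.947 between mTEChi Exp2 and mTEChi 0h and 0.938 between mTEChi 2 and mTEChi 0h, as a description across genes. Of the 100 highest genes per kb of each library, 65 were in all 3 sets and 137 were in at least 1. Of the 16439 genes that reached 1 CPM in any library, 15107 reached it in all 3, 765 in 2 and 567 in 1. The highest of the 3 values was at least 3 times the lowest for 2589 of these 16439 genes, which is 15.7% and is the background for the counts of spread genes in the lists.

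Most of that spread belonged to mTEChi 0h, and it followed how much of a gene's exons is coding. mTEChi 0h was the lowest library for 1506 of the 2589 genes, against 732 for mTEChi 2 and 351 for mTEChi Exp2. The genes of at least 10 CPM in mTEChi 2 and mTEChi Exp2 were put into 10 equal groups by the share of 50-base windows in their exons that lie within coding sequence (mm9, GENCODE vM1). The ratio of CPM in mTEChi 0h to mTEChi Exp2 was taken for each gene. Its median was 0.342 in the group with the smallest coding share and 1.68 in the group with the largest. It rose at each of the 9 steps between. mTEChi 2 showed no such slope: its median ratio to mTEChi Exp2 lay between 0.965 and 1.02 in all 10 groups. Aire-KO mTEChi (0.950 to 0.982) and mTEClo (0.900 to 0.966) were as flat. The 4 actinomycin D libraries, which the labels give another library kit than mTEChi 0h and which were deposited in the same files, had the slope too, from 0.321 to 1.66 at 1.5 h and from 0.260 to 1.37 at 12 h. The sources give 1 way of counting, over RefSeq exons, for all files and do not say that coding exons alone were counted for these.

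**Figure D4:**
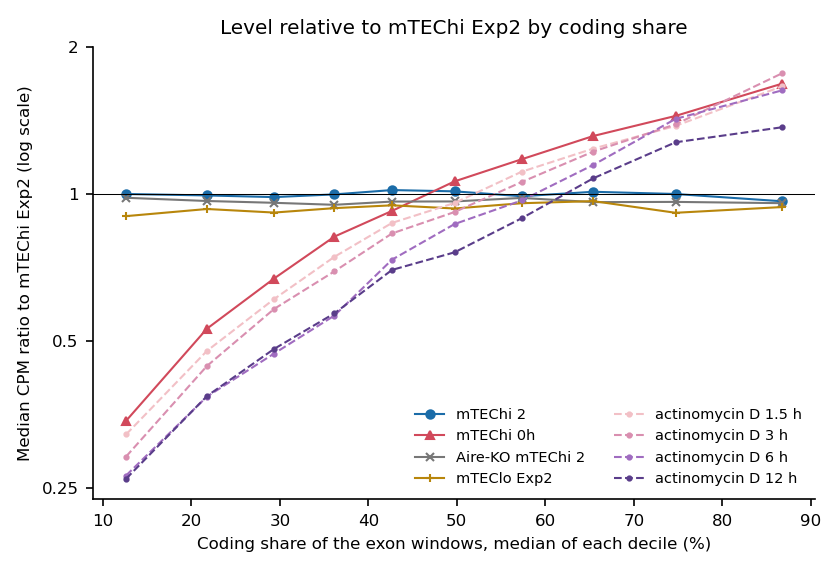
Median ratio of CPM to mTEChi Exp2 (log axis) in 10 equal groups of genes against the median coding share of their exon windows in percent. The line of mTEChi 2 stays between 0.965 and 1.02, and that of mTEChi 0h climbs from 0.342 to 1.68 together with the 4 actinomycin D libraries.

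Single genes show how far mTEChi 0h lay from the other libraries. Rpl41, which encodes the shortest ribosomal protein, had 439 and 382 CPM in mTEChi 2 and mTEChi Exp2, 602 in Aire-KO mTEChi, 276 in mTEClo and no read in mTEChi 0h. No coding share was assigned to Rpl41, so it cannot be placed on the slope. Tmsb4x, with a coding share of 12.0%, had 1859, 1746 and 307 CPM in mTEChi 2, mTEChi Exp2 and mTEChi 0h. Serp1, with a coding share of 2.70%, had 243, 224 and 10.7 CPM. In all, 52 of 9725 genes of 10 CPM in both other libraries were at or below 0.1 times their mean in mTEChi 0h, with a median coding share of 8.04% against 46.3% over the 9725. Some genes lay far outside the slope, such as Gm14308 (0.974, 1.56 and 21.1 CPM, coding share 97.2%), Ifi202b (24.1, 15.9 and 171 CPM, 73.8%) and Lars2 (932, 1121 and 29.4 CPM, 60.5%). Snx22, with a coding share of 11.2%, had 122, 136 and 0.450 CPM and reached only 1.77 in mTEChi 0h when rescaled.

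The mTEChi 0h counts were therefore also rescaled, gene by gene, from coding windows to exon windows, an alternative chosen after seeing the data. The SD of the log2 ratio to mTEChi Exp2 over 11938 genes fell from 0.90 to 0.62, against 0.58 between mTEChi 2 and mTEChi Exp2. The genes with a spread of at least 3-fold went from 1934 of 12867 (15.0%) to 771 of 12751 (6.05%). Aire then had 283, 484 and 459 CPM. For some single genes the rescaling moved mTEChi 0h away from the other libraries: H2-Aa went from 5983 to 4086 CPM and Krt17 from 2620 to 1466, so it serves for distributions rather than single genes.

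Differences between pools were therefore read from mTEChi 2 against mTEChi Exp2, the pair without the slope. Of 16141 genes of 1 CPM in either, 183 (1.13%) were at least 3-fold higher in mTEChi 2 and 144 (0.892%) at least 3-fold higher in mTEChi Exp2. Tuft-like genes differed most often, with 9 of 15 at least 3-fold higher in mTEChi 2, and corneocyte-like genes followed with 6 of 13. Trpm5, the ion channel of taste and tuft cell signalling, had 178 CPM in mTEChi 2, 45.5 in mTEChi Exp2 and 155 in mTEChi 0h. Avil, a tuft cell actin-bundling protein, had 246, 64.9 and 168 CPM, and Il25, the tuft cell cytokine, 38.2, 7.06 and 9.25. Pou2f3, the transcription factor that defines tuft cells, had 74.0, 35.4 and 34.4 CPM. Of the corneocyte-like genes, Krt10, a keratin of the upper epidermis, had 582, 206 and 418 CPM, Krt1, its partner, 185, 55.9 and 92.5, and Krtdap 182, 31.9 and 29.1. The microfold-like gene Gp2, a receptor for bacteria, had 492, 144 and 343 CPM, whereas Spib had 437, 485 and 182. These lists thus stood higher in mTEChi 2 than in mTEChi Exp2, in 14 of 15 tuft-like, 12 of 13 corneocyte-like and 8 of 10 microfold-like genes, against 46.5% of all genes. Other lists leaned the same way, with 13 of 15 dendritic cell and macrophage, 8 of 9 endothelial and 18 of 22 epithelial identity genes higher in mTEChi 2, and their part in the result was not tested.

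Cell cycle genes stood the other way. All 23 were lower in mTEChi 2 than in mTEChi Exp2, and 3 of them were so by at least 3-fold. Mki67, the proliferation antigen, had 28.5 CPM in mTEChi 2, 144 in mTEChi Exp2 and 327 in mTEChi 0h (153 when rescaled). Top2a, the topoisomerase of dividing cells, had 19.4, 85.4 and 145 CPM, and the replication helicase subunit Mcm5 had 20.5, 57.8 and 49.8. The groups of values do not show whether the pools held different shares of such cells or cells with different RNA levels, which bulk libraries cannot tell apart. Heat shock genes were lower in mTEChi 2 than in mTEChi Exp2 in 12 of 13 cases. With 1 library on each side, none of these differences has a replicate check.

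**Figure D5:**
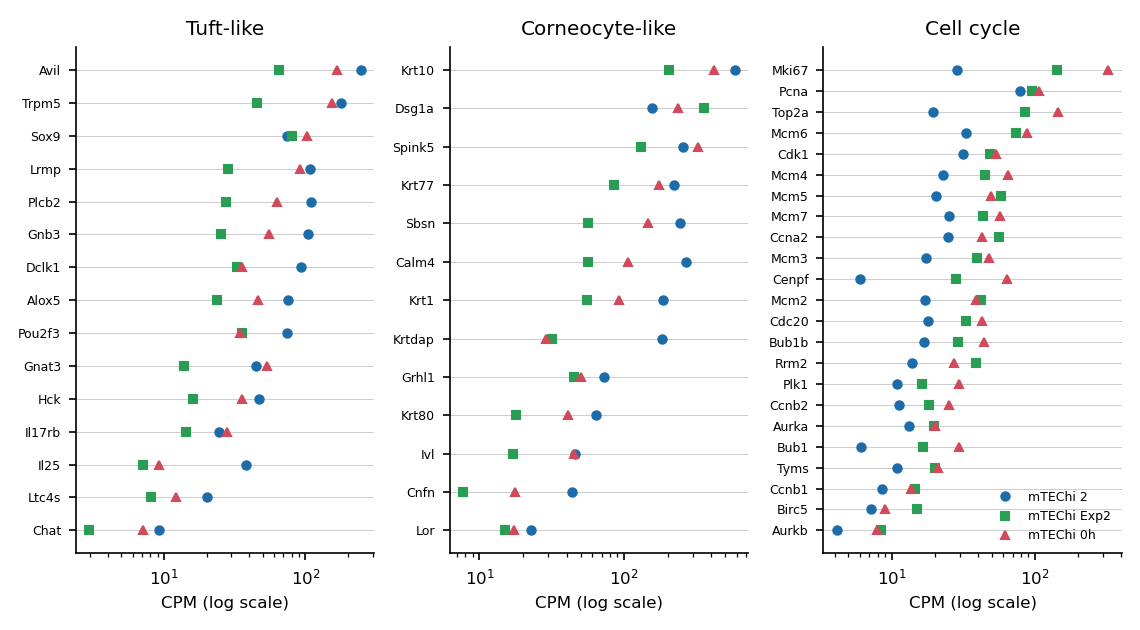
CPM (log axis) of each measured tuft-like, corneocyte-like and cell cycle gene in mTEChi 2 (circles), mTEChi Exp2 (squares) and mTEChi 0h (triangles). The circles lie right of the squares for 14 of 15 tuft-like and 12 of 13 corneocyte-like genes and left of them for all 23 cell cycle genes.

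By the rule of the highest and lowest ratio to the other libraries, mTEChi 2 stood out further for Guca2a (13.3, 2.88 and 2.58 CPM in mTEChi 2, mTEChi Exp2 and mTEChi 0h) and Guca2b (36.4, 8.08 and 7.07), peptides that regulate salt secretion in the gut, and for the chemokine Ccl6 (113, 26.2 and 17.3). It was lowest for Cenpe, Cenpf, Knl1, Kif20b and Smc4, all of cell division, with Cenpe at 4.64, 21.2 and 62.1 CPM. mTEChi Exp2 was highest for Ccnd2, a G1 cyclin (151, 463 and 73.2 CPM), Ipcef1 (47.9, 126 and 16.1) and the opioid receptor gene Oprd1 (10.2, 30.1 and 5.58), and lowest for the secreted mucin Muc5b (54.0, 7.80 and 37.6) and Egr3 (44.3, 9.76 and 75.3). These ratios use mTEChi 0h as deposited, and the rescaled level there was 283 CPM for Ccnd2 and 61.9 for Ccl6. With mTEChi 0h rescaled, Cenpe (29.4 CPM there) and Cenpf (35.5) were still among the 8 lowest of mTEChi 2. Kif20b and Smc4 were not, and Knl1 had no coding share to rescale by. At the other extreme, 10 genes over 100 CPM with the lowest CV had a CV of at most 0.020. Dnaja2, a co-chaperone, had 133, 134 and 132 CPM, Rps27a, a ribosomal protein fused to ubiquitin, 142, 140 and 143, and Eif3f, a translation initiation factor, 189, 188 and 192. With mTEChi 0h rescaled, Rps27a alone of the 10 was still among the 10 most even genes. Eif3f, Eno1b and Rtcb, also of the 10, had no rescaled value and could not be ranked there.

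The 3 libraries were then set against the single Aire-KO library, which asks which of their genes are read at a lower level without Aire. By limma on log2(CPM + 0.5), 836 of 16457 genes (5.08%) were higher in the 3 WT libraries and 4 (0.0243%) were lower, with Benjamini-Hochberg adjusted p-values over all genes. None of the 25 most abundant genes per kb was called in either direction. The lower genes were AY761185, Ctla4, Gm15056 and Spem2. In the organ lists, 14 of 19 tested pancreas genes were higher, 13 of 23 liver genes, 8 of 16 milk and saliva genes, 5 of 17 thyroid, stomach and kidney genes, 5 of 19 brain and eye genes, 2 of 10 testis genes and 1 of 19 muscle and heart genes. The median log2 difference was 3.18 for pancreas and 2.41 for liver, against 0.19 over all genes. Pgc had 63.0, 76.0 and 87.7 CPM in the WT libraries and 0.412 in Aire-KO mTEChi, a log2 difference of 6.37 ± 0.47 (SE, limma adjusted p = 0.0111). Pyy differed by 5.05 ± 0.45 (SE, limma adjusted p = 0.0111), with 0.428 CPM in Aire-KO mTEChi, and Fgg, a fibrinogen chain, by 5.33 ± 0.55 (SE, limma adjusted p = 0.0111). Csn2 was not called, with 821 CPM in Aire-KO mTEChi. Of the skin-like genes Krt10 (19.8 CPM in Aire-KO mTEChi), Krt1 (2.51) and Krt77 (16.02) were called higher in the WT libraries. Macrophage genes moved with these, since Itgam, C1qa, C1qc and Adgre1, 4 of 15 tested of their list, were higher too. The list summed to 303 to 813 CPM in WT and 440.5 in Aire-KO, of which Lyz2 alone made 173 to 627 and 381. Over the 15 tested genes the median log2 difference was 1.83, while Fcer1g was higher in Aire-KO mTEChi (28.4 CPM) than in any WT library. The part of these genes in the result was not tested. Without mTEChi 0h, 10 of 15 macrophage and dendritic cell, 5 of 9 endothelial, 8 of 13 corneocyte-like, 5 of 10 microfold-like, 11 of 17 thyroid, stomach and kidney, 9 of 19 brain and eye and 5 of 19 muscle and heart genes were higher, against 18 of 19 pancreas and 15 of 23 liver genes. The background of that run was also larger, with 2294 of the 16457 genes higher.

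Against mTEClo, 534 of 16787 genes (3.18%) were higher in the 3 mTEChi libraries and 272 (1.62%) were lower by the same limma test. Higher genes included 7 of 20 of the mTEC maturation list and 3 of 16 of class II presentation, while 1 of the 20 maturation genes was lower. Ctsl, of the maturation list, had 230, 187 and 259 CPM in mTEChi 2, mTEChi Exp2 and mTEChi 0h against 1010 in mTEClo. Aire had 16.9 CPM in mTEClo, a log2 difference of 4.78 ± 0.62 (SE, limma adjusted p = 0.0281), and the costimulatory ligand gene Cd80 had 97.9, 137 and 142 CPM in mTEChi against 10.8 (3.46 ± 0.47, SE, limma adjusted p = 0.0281). Among the 25 most abundant genes only Ubd (2.82 ± 0.40, SE, limma adjusted p = 0.0281) and Srgn (2.73 ± 0.46, SE, limma adjusted p = 0.0314) were called by this test. The class II chains themselves were not: H2-Aa, for example, had 1804 CPM in mTEClo and a log2 difference of 1.76 ± 0.40 (SE, limma adjusted p = 0.0548). Lower genes included Krt5, Krt14 and Ccl21a, and with them 6 of 11 endothelial and 6 of 11 fibroblast markers, whose sums were 528 and 1346 CPM in mTEClo against at most 118 and 309 in mTEChi, and whose part in the result was not tested. Without mTEChi 0h, 11 of 20 maturation, 7 of 16 class II and 9 of 16 dendritic cell and macrophage genes were higher, and 10 of 11 endothelial and 8 of 11 fibroblast genes were lower. In that run 1 maturation gene and 1 dendritic cell and macrophage gene were lower. Its background was larger too, with 1918 of the 16787 genes higher and 1192 lower. In both tests the lone library was assumed to vary as the 3 did. Without mTEChi 0h the counts were 2294 higher and 60 lower against Aire-KO, and 1918 higher and 1192 lower against mTEClo.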

How the data were processed

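RNA of pooled, sorted mTECs was sequenced as poly-A TruSeq libraries without strand (another low-input kit for the actinomycin D libraries). Per the labels and the methods the authors trimmed reads to 50 bases, aligned them with Bowtie 1.0.0 to mm9 and counted reads lying wholly within RefSeq exons with bedtools, so that isoforms share reads. The pair tables deposited by the authors hold DESeq-normalised counts, a signal from which whole reads were recovered (100% of values within 0.1 of a whole number). The actinomycin D files deposited by the authors hold raw counts, and mTEChi 0h is the same column in all 4. Columns of fold changes and p-values in the pair tables were not used. The column taken as mTEChi 2 carries no sample name. It was assigned from the study's own code, which reads that table's fold change as WT over Aire-KO.

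Reads were scaled to CPM over the 25401 shared entries. The exon length came from the deposited table. Of the entries, 98.4% had a symbol, and the entry with the highest mean CPM stood for each gene. Tests used limma 3.58.1 in R 4.3.3 (log2(CPM + 0.5), mean-variance trend, genes of at least 1 CPM in a library, adjusted p under 0.05). They were also run on simulated counts without the slope of mTEChi 0h, with changes placed only in genes of at least 10 CPM. That run therefore does not check the tests for the slope or for lower genes. edgeR 4.0.16 and DESeq2 1.42.0 on the recovered reads were alternatives. Named genes were the 25 highest per kb, 8 with the highest and 8 with the lowest ratio in each library, the 10 most even ones, the 4 highest of each list, the 2 highest of each family, Aire, Clp1 and the marker genes of other cells. Relb, Epcam, Cdh1, Pyy, Sst, Ins2, Il25, Pou2f3, Krt1, Mcm5, Fgg, Cd80, Lars2, Serp1 and the genes called against Aire-KO or mTEClo outside these were chosen after their values were seen. The libraries and gene lists were chosen with earlier results of these data known. List symbols that are older names were matched through RefSeq synonyms, and those without a match were left out of the measured numbers. One of the 25 highest genes is not reported here.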

Additional observations from a re-analysis of the deposited data

Results flagged for a closer look

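Non-coding RNAs were outside the comparisons, since they were counted only in the tables of the pairs. The highest with no coding symbol, all above the limit that a count of 0 allows, were the ribosomal RNA entry NR_046233 with a mean of 7804 CPM over mTEChi 2 and mTEChi Exp2, Malat1 with 1257, Neat1 with 489.2 and Gm6548 with 370.9. NR_046233 held 8343 CPM in mTEChi 2 and 7266 in mTEChi Exp2, against 42646 in Aire-KO mTEChi and 62930 in mTEClo.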

How the results depend on the processing

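The number of genes at 1 CPM in all 3 libraries, 15107, stayed within 1.5 times under every alternative run. The share of reads in the 100 highest genes was 17.6% with each RefSeq entry by itself, 22.6% with mTEChi 0h rescaled and 23.8% for the same genes without rescaling. Genes with a 3-fold spread numbered 771 with mTEChi 0h rescaled, and from 327 (without mTEChi 0h) to 1929 when single libraries were left out (1439 without mTEChi 2). The median CV ranged from 0.163 (without mTEChi 0h) to 0.291 with a library left out, and was at most 0.309 under any alternative run.

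Genes higher than in Aire-KO numbered 1726 with a pseudocount of 0.1, 123 with 2, 1387 by edgeR, 2541 by DESeq2, 1827 with mTEChi 0h rescaled, and 927 to 2294 with a library left out, the highest without mTEChi 0h. Lower genes numbered 0 by limma with a pseudocount of 2, 14 by edgeR, 53 by DESeq2, 28 with rescaling, 2 for the same genes without it, and 7 to 60 with a library left out (7 without mTEChi 2, 19 without mTEChi Exp2, 60 without mTEChi 0h). At an unadjusted p under 0.05, limma gave 2964 higher and 103 lower.

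Genes higher than in mTEClo numbered 333 with a pseudocount of 2, 1538 by DESeq2, 1321 with rescaling, and 323 (without mTEChi Exp2) to 1918 (without mTEChi 0h). Lower genes numbered 883 without a filter on low values, 812 by DESeq2, 861 with rescaling, and 169 (without mTEChi Exp2) to 1192 (without mTEChi 0h). The cause of these moves was not tested. The rescaled alternatives were chosen after seeing the data. Of 159 alternatives of 27 named genes, 156 moved the mean by less than 1 SD, and the other 3 were H2-Aa, Krt17 and Krt8 under rescaling. Leaving out the ribosomal RNA entry was not run, since it is not among the shared entries. No paired analysis was possible because each comparison set 3 libraries against 1, which share fewer than 2 replicate numbers.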

Other observations

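Reads on Lars2, a mitochondrial leucyl-tRNA synthetase gene, came to 932 and 1121 CPM in mTEChi 2 and mTEChi Exp2. They came to 4603 in Aire-KO mTEChi and 18828 in mTEClo, against 29.4 in mTEChi 0h. The ribosomal RNA entry was also higher in Aire-KO mTEChi (42646 CPM) and mTEClo (62930) than in mTEChi 2 (8343) and mTEChi Exp2 (7266). Whether ribosomal RNA reads were counted on Lars2 was not tested, so its values may not be levels of the gene. Bitter and sweet taste receptors reached 1 CPM for 15 of 38 genes in mTEChi 2, 3 in mTEChi Exp2 and 19 in mTEChi 0h, and for 24 in mTEClo. Replication-dependent histone genes summed to 465 CPM in mTEChi 2, 306 in mTEChi Exp2 and 139 in mTEChi 0h over 12 genes. The p53 target list summed to 2434, 1740 and 1253 CPM over 15 genes in the same order.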
